A study of Psammomys obesus with 8 samples.

Results

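The mouse gene symbols Zfp600 to Zfp999 name a numbered stretch of the C2H2 zinc finger genes, and their DNA was followed here in captured methylated DNA of the hypothalamus of the fat sand rat, *Psammomys obesus*, a desert gerbil used as a model of obesity and diabetes. The members were all contigs (assembled stretches of sand rat sequence) whose match to the mouse genome lay inside a gene with such a symbol. They numbered 412 of the 548060 contigs counted, and they stood for 103 of the 19098 genes with a contig inside. The 8 libraries came from males aged 16 weeks and formed 2 groups, 4 called standard-low and 4 called low-low after the labels, whose diet entries read Standard Lipid for standard-low and Low lipid for low-low. The deposited design names the fathers' diet as the difference, while the title of the series has parental diet. The MethylMiner kit pulls out methylated fragments with a methyl-CpG binding domain, and the reads of the captured fragments were counted over each contig.

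C2H2 zinc finger proteins bind DNA through arrays of small folds that each hold a zinc ion, joined by short conserved linkers, and many carry a KRAB domain that recruits the corepressor TRIM28. TRIM28 brings in the histone methyltransferase SETDB1 and heterochromatin proteins, and in mouse many KRAB zinc finger proteins silence retroelements in this way. The fingers are usually encoded in a row within the last exon, and the genes lie in clusters that expand and diverge quickly between species.

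The 8 libraries held between 11646180 and 13533441 counts over all contigs, with the 4 standard-low totals all below the 4 low-low totals. Averaged over the libraries, the median member contig held 22.3 counts, against 17.4 for the median of all contigs. Levels are given as CPM, counts per 1000000 counts of the library after TMM scaling. The median coefficient of variation of a member contig was 23.9% among standard-low libraries and 19.7% among low-low libraries, so single contigs resolve only large differences. The labels do not say that the libraries of a group came from separate animals or litters, and p-values measure the spread between these samples only. No untreated input DNA was used here, so a count mixes methylation with how much of that sequence was present. In whole tissue, fewer cells with a methylated copy and fewer methylated copies per cell cannot be told apart.

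The finger arrays were visible in the sequences. A 14-base pattern back-translated from the conserved linker between fingers, with some positions left free, was searched on both strands. It occurred in 62 of the 412 member contigs (15.05%) from 52 genes. The share was 14.02% (121 of 863) in contigs of Zfp1 to Zfp599, 0.204% (253 of 123807) in contigs inside other genes and 0.164% (900 of 548060) over the whole table. The member contigs held 157 such sites, and 61 of the 95 neighbouring pairs on a strand were 84 bases apart, the step of a finger and its linker. Whole multiples of that step covered 92 of the 95 pairs. The contig with the most sites, 11, lay in Zfp872 (mouse chromosome 9 from 22199643 to 22200931; the labels do not name the mouse build). The Zfp787 contig (chromosome 7 from 6132634 to 6133009) had the lowest p-value of the members that carry the pattern. Bases 992 to 1291 of the Zfp872 contig and 80 to 379 of the Zfp787 contig are shown to make the array visible, on the deposited strand and with the linker pattern in capitals.
Zfp872: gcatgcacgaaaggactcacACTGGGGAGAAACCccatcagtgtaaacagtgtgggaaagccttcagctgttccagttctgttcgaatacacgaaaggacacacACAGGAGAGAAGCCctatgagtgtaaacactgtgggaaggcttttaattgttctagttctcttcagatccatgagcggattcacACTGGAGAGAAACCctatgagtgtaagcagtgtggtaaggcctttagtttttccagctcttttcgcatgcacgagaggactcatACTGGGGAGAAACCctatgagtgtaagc
Zfp787: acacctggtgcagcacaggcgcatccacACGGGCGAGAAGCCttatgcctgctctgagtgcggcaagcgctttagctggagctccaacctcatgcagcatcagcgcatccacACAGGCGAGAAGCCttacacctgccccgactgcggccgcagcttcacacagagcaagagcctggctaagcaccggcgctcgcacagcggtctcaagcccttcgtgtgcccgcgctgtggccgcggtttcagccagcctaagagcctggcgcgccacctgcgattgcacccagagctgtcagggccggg

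Members also spanned a wide range of CpG density, the property that methyl-CpG capture reads. The Zfp647 contig (chromosome 15 from 76910913 to 76911319) was the CpG-richest, with 9.83 CpG per 100 bases, and the Zfp711 contig (chromosome X from 112632402 to 112632950) the poorest, with 0.729. Bases 1 to 300 of both are shown with CpG in capitals, followed by the same stretch of the Zfp600 contig (chromosome 4 from 146175578 to 146175632), which had the lowest p-value of all members.
Zfp647: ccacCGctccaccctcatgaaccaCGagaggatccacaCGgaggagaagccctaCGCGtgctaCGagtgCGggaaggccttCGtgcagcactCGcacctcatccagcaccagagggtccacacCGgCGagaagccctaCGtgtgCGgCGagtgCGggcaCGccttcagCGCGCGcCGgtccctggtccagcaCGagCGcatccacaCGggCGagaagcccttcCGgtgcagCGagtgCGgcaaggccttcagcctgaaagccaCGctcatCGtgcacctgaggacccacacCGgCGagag
Zfp711: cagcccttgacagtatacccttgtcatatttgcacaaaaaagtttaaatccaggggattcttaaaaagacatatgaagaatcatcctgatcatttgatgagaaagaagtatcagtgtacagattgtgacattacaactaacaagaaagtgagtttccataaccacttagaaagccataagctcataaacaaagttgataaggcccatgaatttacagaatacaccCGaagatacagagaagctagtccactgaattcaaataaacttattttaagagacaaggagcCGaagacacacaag
Zfp600: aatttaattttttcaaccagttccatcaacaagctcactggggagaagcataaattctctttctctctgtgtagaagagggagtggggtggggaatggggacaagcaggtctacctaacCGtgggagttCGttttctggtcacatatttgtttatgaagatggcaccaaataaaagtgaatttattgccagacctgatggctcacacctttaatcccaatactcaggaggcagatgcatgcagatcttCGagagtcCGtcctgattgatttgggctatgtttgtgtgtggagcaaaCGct

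Most of the gene names rest on partial matches. The median match was 299 bases on contigs with a median length of 512.5 bases, 98 of the 412 matches were shorter than 100 bases, and 47 of the 103 genes had a Znf gene of the same number among the symbols of the sand rat RefSeq table (assembly mPsaObe1). Close copies were few: 14 member contigs had another contig of at least 90% identity over 100 bases, 5 of them with a member. Reads of these 14 could be shared between copies, as could those of the finger arrays. At 80% identity over 60 bases, 213 members had no similar contig and 52 had at least 100. The mouse match of 57 member contigs overlapped that of another contig of the same gene, so contigs of a gene are not always separate pieces of it. In Zfp935 the matches of all 7 contigs lay within 0.114 kb.

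Contigs were spread unevenly over the genes. A single contig stood for 38 genes, 41 genes had 2 to 4, and 24 had 5 or more. The 9 genes with more than 10 contigs held 179 contigs or 43.4% of the members. Zfp644, whose protein works with the histone methyltransferases G9a and GLP, had 39 contigs over 144 kb of mouse sequence. Zfp827, whose human counterpart recruits the NuRD complex to telomeres, had 32 over 159 kb, Zfp618, a partner of the hydroxymethylcytosine reader UHRF2 in human cells, 21 over 160.4 kb, and Zfp800 18 over 126 kb. Mouse chromosome 7 held 73 member contigs of 26 genes and chromosome 8 held 61 of 13 genes.

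Per kilobase of contig, members were captured at levels much like those of other genes. The median level was 3.56 CPM per kb in members, 3.52 in contigs of Zfp1 to Zfp599 and 3.52 in all contigs inside genes. Contigs with the linker pattern had a median of 4.23 CPM per kb and those without it 3.43, at nearly equal median CpG densities of 2.46 and 2.44 per 100 bases. CpG-rich contigs were still more frequent with the pattern, since 19.4% of those contigs had at least 5 CpG per 100 bases, against 5.14% without it. These medians are descriptions, with no test. Contigs with at least 5 CpG per 100 bases made up 7.28% of members, against 3.71% of Zfp1 to Zfp599 contigs and 1.73% of contigs inside genes. Across the 412 members the level per kb and the CpG density had a Spearman correlation of 0.42, against 0.48 over all contigs. Contigs share their libraries, and both measures are per length.

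The highest capture by counts was in the long contigs. The Zfp704 contig of 3866 bases had 16.9, 14.8, 17.7 and 15.7 CPM in standard-low libraries 1 to 4, against 18.6, 17.4, 16.0 and 17.4 CPM in low-low libraries 1 to 4. The groups overlapped, and the log2 fold change of standard-low over low-low was -0.09 ± 0.124 (SE; edgeR adjusted p = 0.966). The contig named Zfp790 had 13.9 ± 3.32 CPM in standard-low and 13.8 ± 1.24 CPM in low-low (SD, n = 4 each), although only 50 of its 2582 bases matched mouse. The Zfp646 contig had 11.98 ± 2.45 and 14.3 ± 1.40 CPM in standard-low and low-low, and the Zfp658 contig 11.04 ± 0.926 and 12.7 ± 1.80 CPM. None of these 4 contigs passed the edgeR test (adjusted p from 0.882 to 0.998). Per kilobase the Zfp646 contig, at 10.01 CPM per kb, stood well above the member median.

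The comparison of standard-low with low-low asked where hypothalamic methylation differs with parental diet. No zinc finger contig passed it: 0 of the 412 members had an edgeR quasi-likelihood adjusted p under 0.05, with p-values adjusted over all 548060 contigs, of which 0.0268% were called (0.0203% higher and 0.00657% lower in standard-low). DESeq2 and limma voom also called 0 members. With edgeR, 26 members had an unadjusted p under 0.05, or 6.31%, against 5.68% of all contigs. DESeq2 put 11 members under that unadjusted p, and 12521 of the 548053 contigs it tested. Limma voom put 24 members under it, and 30477 of all 548060 contigs. Of the 26, 6 were higher in standard-low (1.46%, against 2.93% of all contigs) and 20 lower (4.85%, against 2.76%). The groups did not overlap at 14 members (3.40%, against 3.24% of all contigs), 8 higher (1.94%, against 1.63%) and 6 lower (1.46%, against 1.61%). Apart from the lower values at an unadjusted p under 0.05, these shares lie near or under the background. The log2 fold change was positive at 193 members (46.8%, against 50.3% of all contigs).

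Summed over the contigs of each gene, 0 of the 103 genes passed with edgeR, against 0.00524% of the 19098 genes, and 0 passed with DESeq2 or limma voom. With edgeR, 8 genes had an unadjusted p under 0.05 (7.77%, against 6.03% of all genes). Of these, 2 were higher (1.94%, against 1.71%) and 6 lower (5.83%, against 4.32%) in standard-low. DESeq2 put 3 member genes under that unadjusted p, and 574 of all 19098 genes. Limma voom put 9 member genes under it, and 1247 of all genes. The groups did not overlap at 6 genes (5.83%, against 3.47%), namely Zfp600 and Zfp622, which were higher (1.94%, against 1.40%), and Zfp619, Zfp668, Zfp691 and Zfp719, which were lower (3.88%, against 2.07%), the last 4 named after their values were seen. The log2 fold change was positive at 47 genes (45.6%, against 41.4%). The median log2 fold change was -0.02 over the member genes and -0.03 over all genes. The member genes together had 949.5, 899.4, 999.98 and 924.3 CPM in standard-low libraries 1 to 4, against 946.4, 982.0, 993.8 and 971.5 CPM in low-low libraries 1 to 4. Standard-low library 2 was the lowest and standard-low library 3 the highest of the 8. The same held over all 125082 contigs inside genes, at 259874 and 287594 CPM.

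The member contig with the lowest p-value lay in Zfp600, a gene of a zinc finger cluster on mouse chromosome 4. It had 1.28, 1.43, 1.91 and 1.27 CPM in standard-low libraries 1 to 4, against 0.458, 0.520, 0.722 and 0.538 CPM in low-low libraries 1 to 4. All 4 standard-low libraries lay above all 4 low-low libraries, and the ratio of means was 2.63. Its log2 fold change was 1.39 ± 0.339 (SE), with an edgeR adjusted p of 0.191, which missed the threshold. These values rest on 15, 17, 23 and 15 counts in standard-low and 6, 7, 9 and 7 counts in low-low. Only 56 of the 396 bases of this contig matched mouse, and 45 other contigs resembled a part of it at 80% identity over 60 bases, so the name Zfp600 is uncertain.

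The contigs that came next were all lower in standard-low. The Zfp787 contig shown above had 0.770, 0.590, 1.16 and 0.676 CPM in standard-low libraries 1 to 4, against 0.917, 2.30, 2.01 and 1.31 CPM in low-low libraries 1 to 4. The groups overlapped, since standard-low library 3 exceeded low-low library 1. Its log2 fold change was -1.02 ± 0.317 (SE; edgeR adjusted p = 0.665). The Zfp629 contig, with 7.16 CpG per 100 bases, had 0.941, 0.253, 1.99 and 0.761 CPM in standard-low libraries 1 to 4, against 1.53, 2.38, 2.33 and 1.38 CPM in low-low libraries 1 to 4. Its standard-low values were widely spread, with library 3 within the low-low range and library 2 far below it (edgeR adjusted p = 0.718). Its log2 fold change was -0.94 over all libraries, -0.62 without standard-low library 2 and -1.53 without standard-low library 3, where the edgeR adjusted p was 0.0527. In Zfp651 a contig with 7.69 CpG per 100 bases had 2.80 ± 1.51 CPM in standard-low and 4.25 ± 0.767 CPM in low-low (SD, n = 4 each; edgeR adjusted p = 0.763), and here too standard-low libraries 2 and 4 were the lowest, at 1.10 and 2.11 CPM. Without standard-low library 3 its log2 fold change was -0.94 instead of -0.60 (edgeR adjusted p = 0.0884), and without library 2 it was -0.33. Leaving out standard-low library 3 moved the whole table too. In that setting 41080 contigs had an unadjusted edgeR p under 0.05, 21785 of them lower, in place of 31149 and 15104. The Zfp827 contig had 2.38 ± 0.606 and 3.64 ± 0.698 CPM in standard-low and low-low (adjusted p = 0.745).

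**Figure D1:**
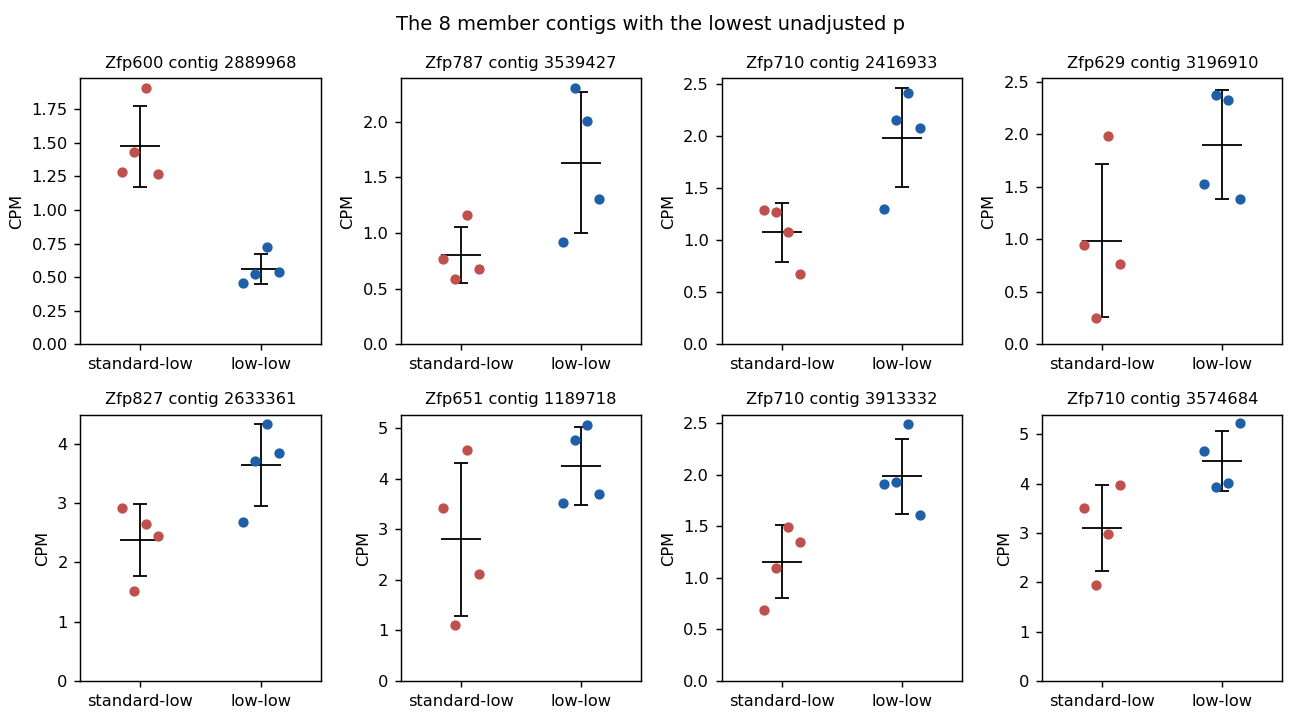
CPM of the 8 member contigs with the lowest unadjusted p, with a point per library, standard-low on the left and low-low on the right of each panel, and bars for the mean and SD of 4 libraries. The Zfp600 contig is higher in standard-low with no overlap, the other 7 are lower, and of those the groups separate at 2 Zfp710 contigs.

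In Zfp710, 5 of the 14 contigs had an unadjusted edgeR p under 0.05 and lower values in standard-low. Over all contigs this share was 2.76%, and it was 6.30% at 3 to under 5 CpG per 100 bases and 12.9% at 5 or more, the densities of the run. These 5 were direct neighbours within 1738 bases of mouse chromosome 7, from 80080810 to 80082547. The run was singled out after its values were seen and is given without a test of its own. Its summed level was 8.64, 5.65, 9.03 and 8.20 CPM in standard-low libraries 1 to 4, against 11.7, 11.96, 12.8 and 13.4 CPM in low-low libraries 1 to 4. The groups did not overlap, and the ratio of means was 0.632. The other 9 contigs summed to 18.3 ± 1.39 CPM in standard-low and 18.9 ± 1.56 CPM in low-low (SD, n = 4 each), with 3 higher and 6 lower in standard-low. Within the run the log2 fold changes ran from -0.88 to -0.52 and the CpG densities from 3.33 to 7.93 per 100 bases.

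The contigs 2416933 and 3913332 of the run separated the groups. The contig numbered 2416933 had 1.28, 1.27, 1.08 and 0.676 CPM in standard-low libraries 1 to 4, against 1.30, 2.15, 2.41 and 2.07 CPM in low-low libraries 1 to 4 (edgeR adjusted p = 0.681). That numbered 3913332 had 1.16 ± 0.354 CPM in standard-low and 1.99 ± 0.365 CPM in low-low (SD, n = 4 each; adjusted p = 0.764). Adjacent contigs of a library can draw on the same captured fragments, so they are not independent. Summed over all 14 contigs, Zfp710 had 27.0, 22.7, 29.3 and 25.8 CPM in standard-low libraries 1 to 4, against 30.7, 28.7, 32.5 and 33.6 CPM in low-low libraries 1 to 4. The log2 fold change was -0.26 ± 0.0838 (SE; edgeR adjusted p = 0.807), with standard-low library 3 above low-low library 2, and it was -0.12 when scaling factors were computed within bins of CpG density. Under that scaling the 5 contigs of the run had log2 fold changes from -0.74 to -0.45, and the other 9 from -0.33 to 0.54. The bins held about equal numbers of contigs, and only 6584 of all 548060 contigs had at least 5 CpG per 100 bases. The densest contigs thus shared a bin with less dense ones, so this scaling cannot remove a trend with density among them.

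**Figure D2:**
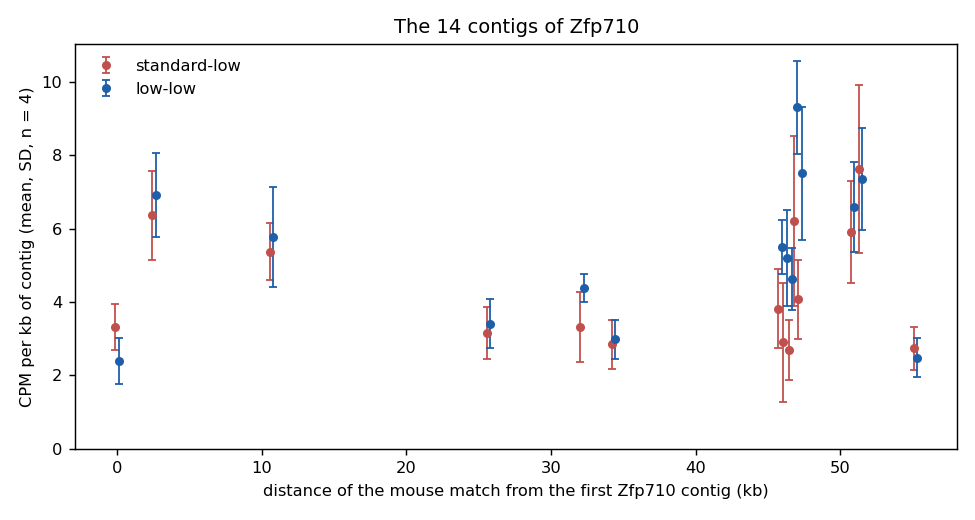
Level of the 14 Zfp710 contigs in CPM per kb of contig (mean and SD of 4 libraries, standard-low in red and low-low in blue) against the distance of their mouse match from the first contig in kb. The 5 closely spaced contigs of the run are lower in standard-low, while at the other 9 the groups overlap.

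The direction of the differences followed CpG density. Of the 30 members with at least 5 CpG per 100 bases, 23 had lower and 7 higher values in standard-low (23.3% higher, against 24.8% of all contigs of that density), with a median log2 fold change of -0.41. Of the 119 members with under 2 CpG per 100 bases, 46 were lower and 73 higher, with a median of 0.15. Of the 117 members with 3 or more CpG per 100 bases, 15 had an unadjusted edgeR p under 0.05 and all 15 were lower in standard-low. Of all contigs of that density past that p, 84.5% were lower as well. The 15 members include the 5 neighbouring Zfp710 contigs and 2 contigs of Zfp628, so they are not 15 separate observations. Between 3 and 5 CpG per 100 bases the share of lower contigs past that p was 6.90% of members (6 of 87), near the 6.30% of all contigs. Across the 412 members the Spearman correlation of the log2 fold change with CpG density was -0.37, and over all contigs it was -0.23. The same order held in the whole table, where contigs with at least 5 CpG per 100 bases had a median log2 fold change of -0.20 and those with under 2 a median of 0.07. Among all 6584 contigs with at least 5 CpG per 100 bases, 12.9% had an unadjusted edgeR p under 0.05 and lower values in standard-low, beside 9 of the 30 members, and 1.55% had one with higher values, beside 0 of the 30. Those 30 came from 21 genes, and contigs of a gene are not independent. Their median density was 6.19 CpG per 100 bases, against 5.68 for the 6584, so the 2 sets are not matched in density.

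**Figure D3:**
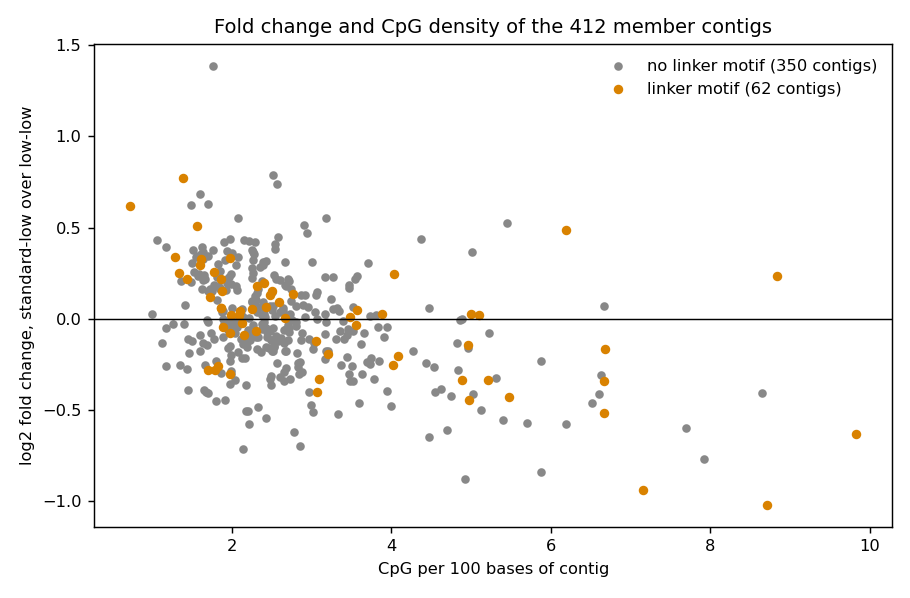
Log2 fold change of standard-low over low-low for each of the 412 member contigs against its CpG per 100 bases. Contigs with the linker pattern are orange and the others grey, and the values fall from mostly above 0 at low CpG density to mostly below 0 at high density, with Zfp600 at 1.39 apart from the rest.

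This order moved with single libraries. The 30 CpG-rich members summed to 49.0, 39.5, 67.8 and 44.4 CPM in standard-low libraries 1 to 4, against 51.3, 68.6, 66.4 and 61.0 CPM in low-low libraries 1 to 4. Standard-low library 3 and low-low libraries 2 to 4 were high, while standard-low libraries 1, 2 and 4 and low-low library 1 were low, so the groups overlapped. The share of all counts in CpG-rich contigs of the whole table ranked the libraries in nearly the same way, at 1.23, 1.07, 1.45 and 1.10% in standard-low libraries 1 to 4, against 1.23, 1.42, 1.42 and 1.37% in low-low libraries 1 to 4. With scaling factors computed within bins of CpG density, an alternative added after the data were seen, members past an unadjusted p of 0.05 numbered 11 higher and 15 lower in standard-low, in place of 6 and 20. Over all contigs the split was 14861 higher and 13412 lower, in place of 16045 and 15104. Summed per gene, members past that p numbered 4 higher and 3 lower, in place of 2 and 6. Over all genes the split changed to 489 higher and 451 lower, in place of 326 and 825. The part of the capture step in the single contigs was not tested.

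**Figure D4:**
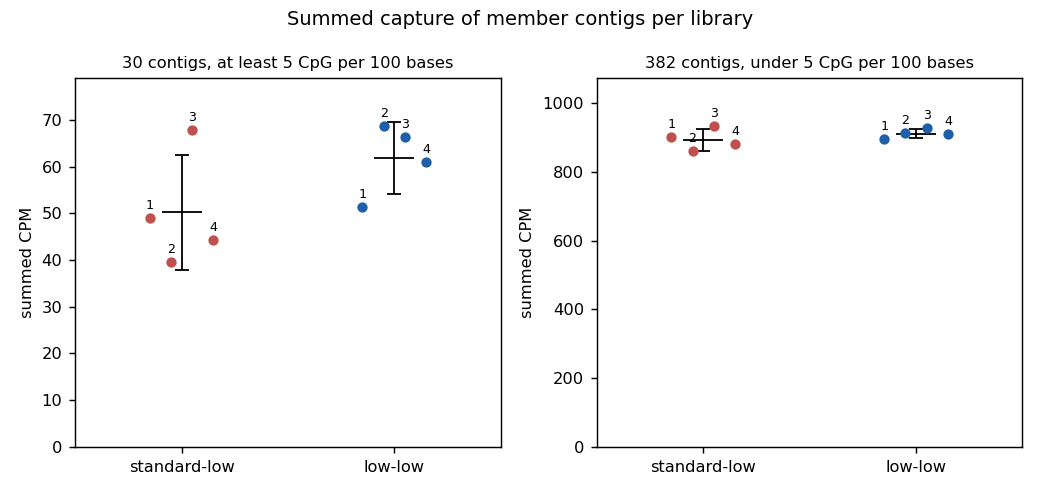
Summed CPM per library of the 30 members with at least 5 CpG per 100 bases (left) and the 382 others (right), with the replicate number at each point and bars for the mean and SD of 4 libraries per group. In the CpG-rich class standard-low library 3 lies with low-low libraries 2 to 4 and low-low library 1 with the lower standard-low libraries, while the other class varies little.

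Zfp628 and Zfp647, which are among the 6 genes of lowest p, had CpG-rich contigs. Zfp628 had 3 contigs, each above 5 CpG per 100 bases, and its summed counts gave 4.36, 2.53, 7.96 and 3.89 CPM in standard-low libraries 1 to 4, against 5.42, 6.76, 7.55 and 7.14 CPM in low-low libraries 1 to 4. Standard-low library 3 was the highest of all 8 and the other 3 standard-low libraries lay below every low-low library. The log2 fold change was -0.51 ± 0.221 (SE; edgeR adjusted p = 0.807), and it was -0.31 without standard-low library 2 (adjusted p = 0.966). Without standard-low library 3 it was -0.90 with an edgeR adjusted p of 0.0389, the only call of a member gene in any of the settings tried. That setting called 0.157% of all genes (0.147% lower in standard-low), against 0.00524% with all libraries. Zfp647 had 3.14 ± 0.407 CPM in standard-low and 4.26 ± 1.06 CPM in low-low over its 2 contigs (SD, n = 4 each; adjusted p = 0.807), with low-low library 1, at 2.98 CPM, inside the standard-low range. Its CpG-richest contig, shown above, had 1.20, 0.843, 1.91 and 1.10 CPM in standard-low libraries 1 to 4, against 0.840, 2.75, 2.25 and 1.997 CPM in low-low libraries 1 to 4.

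The CpG-poorest contig had higher values in standard-low. The Zfp711 contig shown above, in an X-linked gene whose human counterpart is mutated in intellectual disability, had 1.97, 1.86, 2.24 and 2.70 CPM in standard-low libraries 1 to 4, against 2.06, 1.26, 1.44 and 0.922 CPM in low-low libraries 1 to 4. Low-low library 1 fell within the standard-low range, and the edgeR adjusted p was 0.827. Over all 4 contigs Zfp711 had 6.81 ± 1.06 CPM in standard-low and 6.18 ± 0.644 CPM in low-low (SD, n = 4 each; adjusted p = 0.871). Zfp622, whose product works in assembly of the large ribosomal subunit, had a single contig with 2.51 CpG per 100 bases, near the member median. It had 1.37, 1.10, 0.995 and 1.10 CPM in standard-low libraries 1 to 4, against 0.535, 0.520, 0.722 and 0.845 CPM in low-low libraries 1 to 4. Its groups did not overlap (log2 fold change 0.79 ± 0.347, SE; edgeR adjusted p = 0.846 as a contig and 0.807 in the fit over genes), and it matched mouse over 197 of its 199 bases.

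The 62 contigs with the linker pattern had a median log2 fold change of 0.02, with 35 higher and 27 lower in standard-low. An unadjusted edgeR p under 0.05 was found at 6 of them (9.68%, against 5.68% of all contigs and 5.71% of the members without the pattern), 3 in each direction. The lower ones were the CpG-rich contigs of Zfp787, Zfp629 and Zfp647, and the higher ones the contigs of Zfp711, Zfp938 and Zfp667, with under 2 CpG per 100 bases. Zfp938 and Zfp667 are named here after their values were seen. All 62 contigs with the pattern summed to 203.4, 190.5, 214.5 and 206.4 CPM in standard-low libraries 1 to 4, against 191.1, 212.4, 213.5 and 208.3 CPM in low-low libraries 1 to 4, and the groups overlapped. The 4 contigs with 7 to 11 sites, in Zfp791, Zfp872, Zfp709 and Zfp763, had log2 fold changes of 0.00, 0.06, 0.04 and 0.12 (unadjusted p from 0.473 to 0.987). The 350 members without the pattern had a median of -0.03, with 158 higher and 192 lower.

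None of the 4 genes with the most contigs passed the test. Zfp644 had 96.0, 96.2, 96.8 and 84.2 CPM in standard-low libraries 1 to 4, against 92.5, 93.7, 94.1 and 99.2 CPM in low-low libraries 1 to 4. The log2 fold change was -0.02 ± 0.0544 (SE; edgeR adjusted p = 0.953), with 19 contigs higher and 20 lower in standard-low. Zfp827 had 76.2 ± 1.60 CPM in standard-low and 77.5 ± 2.23 CPM in low-low (SD, n = 4 each; log2 fold change -0.02 ± 0.0513, SE; adjusted p = 0.952). Both values were slightly positive, 0.06 and 0.01, with scaling within bins of CpG density. Zfp618 had 37.4 ± 1.65 and 40.1 ± 4.15 CPM, and Zfp800 44.7 ± 3.005 and 48.5 ± 2.73 CPM, in standard-low and low-low (SD, n = 4 each; adjusted p = 0.830 and 0.815). For all 4 genes single contigs went in both directions, from -0.71 to 0.38 in Zfp800 and from -0.61 to 0.68 in Zfp827.

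Other regulators chosen by name gave no call. Zfp652, the partner of the corepressor CBFA2T3 in human cells, had 26.4 ± 2.32 CPM in standard-low and 26.9 ± 2.73 CPM in low-low, and Zfp704 had 42.04 ± 2.54 and 43.02 ± 2.44 CPM (SD, n = 4 each; edgeR adjusted p = 0.967 and 0.946). Zfp746, known as PARIS, a repressor of the metabolic coactivator gene Ppargc1a, had 4.36, 6.33, 5.80 and 7.61 CPM in standard-low libraries 1 to 4, against 7.56, 6.76, 6.66 and 6.07 CPM in low-low libraries 1 to 4, with all 4 contigs below 0 on the log2 scale (gene log2 fold change -0.17 ± 0.150, SE; adjusted p = 0.857). Without standard-low library 1 the gene value was -0.041, without standard-low library 4 it was -0.30, and with scaling within bins of CpG density it was -0.085. Zfp750, a regulator of epidermal differentiation, had 5.88 ± 0.0842 and 6.23 ± 0.862 CPM in standard-low and low-low (adjusted p = 0.928). Zfp703, whose human counterpart is amplified in breast cancer, had 1.08 ± 0.229 and 0.940 ± 0.148 CPM (adjusted p = 0.927), and its contig had the lowest level per kb of all members, 1.004 CPM per kb. Zfp638 had no contig inside.

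Zinc finger genes tied to retroelement silencing in mouse gave no call either. Zfp809, which recognises the primer binding site of retroviruses, had 2.48, 2.36, 2.32 and 2.37 CPM in standard-low libraries 1 to 4, against 3.44, 3.27, 2.33 and 2.61 CPM in low-low libraries 1 to 4. The standard-low values were nearly equal and reached just into the low-low range (log2 fold change -0.29 ± 0.190, SE; edgeR adjusted p = 0.821). Zfp708, which acts on a retroelement family in early embryos, had 0.926 ± 0.238 CPM in standard-low and 0.733 ± 0.123 CPM in low-low (adjusted p = 0.869). Zfp932, a repressor of endogenous retroviruses, had 4.71 ± 0.545 and 5.32 ± 0.274 CPM (adjusted p = 0.840) on a contig with 107 of 677 bases matched. Zfp819, with 5 linker sites on its 2 contigs, had 10.6 ± 1.26 and 11.5 ± 0.961 CPM (SD, n = 4 each; adjusted p = 0.873). The Zfp932 contig and a Zfp809 contig were among those with a copy of at least 90% identity elsewhere in the table.

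**Figure D5:**
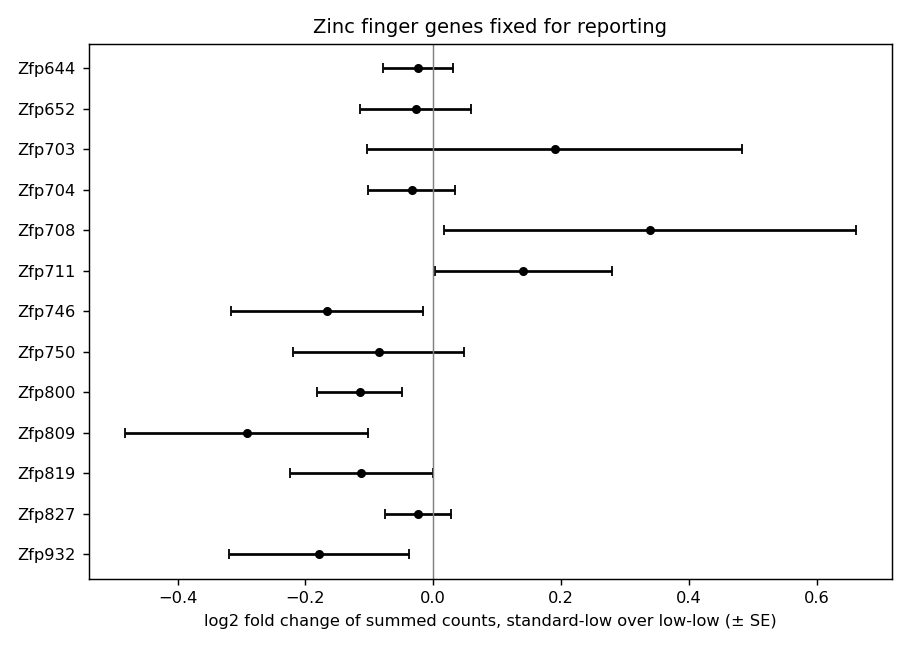
Log2 fold change of summed counts, standard-low over low-low, with SE as bars, for the 13 genes chosen by name that had a contig. The intervals are narrowest for Zfp827 and Zfp644 and widest for Zfp708 and Zfp703, which had 1 contig each.

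A list of other genes of the KRAB repression pathway, mostly partners of the zinc finger proteins, gave the same outcome. It also held the zinc finger genes Zfp57 and Zfp445, which belong to the Zfp1 to Zfp599 set. Of 26 listed names, 23 had contigs inside, 161 in all, and 0 genes and 0 contigs had an edgeR adjusted p under 0.05. Summed per gene, 11 were higher and 12 lower in standard-low, with a median log2 fold change of -0.04, against -0.03 over all genes. Uhrf1, which guides maintenance methylation to hemimethylated DNA, was the 1 gene of the 23 (4.35%, against 6.03% of all genes) with an unadjusted p under 0.05, with 34.5 ± 6.32 CPM in standard-low and 39.9 ± 1.17 CPM in low-low (SD, n = 4 each; adjusted p = 0.807). Trim28 had a log2 fold change of 0.15 ± 0.133 and Setdb1 of 0.07 ± 0.132 (SE; adjusted p = 0.853 and 0.945). Among the 161 contigs, 12 had an unadjusted edgeR p under 0.05 (7.45%, against 5.68% of all contigs), 5 with higher and 7 with lower values.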

How the data were processed

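The authors deposited raw read counts per contig for 8 methyl-CpG capture libraries, with a contig sequence and, for some contigs, a mouse match and its gene. The submitters' processing notes name FastQC (read quality) and BWA (alignment) without versions. The assembler and the mouse build are not given. The header separates library names by spaces and the values are separated by tabs, so columns were matched in header order. The deposited counts sum to at least 81 per contig, so low contigs are not seen here.

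Members, gene lists and named genes were chosen with earlier results of these data known. Named were the 8 contigs and 6 genes of lowest unadjusted p, the 4 contigs of highest CPM, the 4 genes with most contigs, the contigs of highest and lowest CpG density and 14 fixed genes. Contigs mentioned besides these were chosen after their values were seen.

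Contigs, and counts summed over the contigs inside each gene, were tested with edgeR 4.0.16 (R 4.3.3; TMM factors of the contig table, glmQLFit, two-sided glmQLFTest, standard-low over low-low), with Benjamini-Hochberg adjustment over all contigs or genes at 0.05. A filter at a mean of 10 counts removed 0 contigs. SE is the log2 fold change divided by the root of the F statistic. Means carry SD over 4 libraries, and CPM is scaled by library total times TMM factor. In simulated counts with known changes, the contig test on 548060 contigs recovered 16% of 2-fold and 92% of 4-fold changes, and the gene test on 19098 genes 86% and 98%. Each share rests on a small planted set of features. The simulation used a single fixed spread between libraries and no library shift tied to CpG density. Many planted changes were large, which eases the adjusted threshold, so these shares are not the chance of finding a changed member here. Similar contigs were found with BLAST 2.17.0. Alternatives were DESeq2 1.42.0, limma voom (limma 3.58.1), other size factors, filters, match and distance limits, a replicate block, each library left out and, added later, TMM within 10 bins of CpG density.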

Additional observations from a re-analysis of the deposited data

Results flagged for a closer look

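A library is given here when its gap to the nearest other library of its group, divided by the range of the group, passed the critical value of Dixon's test for 4 samples. Of the 74 groups of values examined (37 quantities in 2 groups), 4 met this, where chance gives about 1 in 20. Zfp644 summed over its contigs had 84.2 CPM in standard-low library 4, below the 96.0 to 96.8 CPM of the other standard-low libraries. Zfp819 had 8.77 CPM in standard-low library 2, below 11.1 to 11.5 CPM in the others. Zfp932 had a low library in each group, 3.90 CPM in standard-low library 3 and 4.91 CPM in low-low library 4.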

How the results depend on the processing

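The count of member contigs called was 0 under every alternative run, and that of member genes was 0 under every one except without standard-low replicate 3 (range 0 to 1 over the fits that left out a library), where Zfp628 passed. Among all contigs the edgeR fit called 147, 32 with DESeq2, 50 with limma voom, 82 with a filter at a mean of 20 counts, and 68 to 207 when a library was left out. The single gene called over the whole table became 2 with DESeq2 and with TMM within CpG bins, 0 with limma voom, 3 with the replicate block and 0 to 30 when a library was left out. Same-numbered libraries of the groups had correlations of deviations from -0.01 to 0.03. Counting noise at these low counts keeps such correlations near 0, so they cannot tell whether the numbers pair the libraries. The replicate block, with 206 contigs and 3 genes called, left 0 members called.

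Directions near 0 turned round in some settings, none with a call, and the cause was not tested. The Zfp790 contig had log2 fold changes of -0.019 with limma voom, -0.012 with the replicate block, and -0.13 to 0.14 when a library was left out. Zfp652 had 0.035 with matches of at least 100 bases, 0.0051 with CpG bins, and -0.075 to 0.042 when a library was left out. With CpG bins Zfp644 had 0.058, Zfp827 0.0087 and Zfp704 0.024, and leaving out a library gave -0.042 to 0.022 for Zfp644 and -0.073 to 0.0026 for Zfp704. Zfp703 had -0.093 with contigs up to 2000 bases from the gene, and Zfp819 0.020 with matches of at least 100 bases. At a median of 22.3 counts per library, single contigs resolve only large differences.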

Other observations

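The member contigs with the highest level per kb were very short. A Zfp964 contig of 101 bases had 30.9 CPM per kb and a Zfp711 contig of the same length 24.3 CPM per kb, far above the member median of 3.56. Contigs with fewer than 81 counts over all libraries are absent, so very short contigs with a low level per kb are not seen here. By mouse chromosome, the median log2 fold change of members ran from -0.11 on chromosome 2 (17 contigs) to 0.13 on chromosome 17 (11 contigs) among chromosomes with at least 10 member contigs. Of the 17 contigs on chromosome 2, 11 belonged to Zfp831. Chromosome 7, with 73 contigs of 26 genes, also had a median of -0.11. CpG density was not taken into account here.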
